A study of Homo sapiens with 6 samples.

Results

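The translation factors are the genes whose symbols name a eukaryotic initiation factor (EIF followed by a number) or an elongation factor (EEF1 or EEF2), together with their inhibitors, kinases and modifying enzymes that carry the same prefix. They were picked from the count table by symbol alone. Of 60623 rows, 212 matched, and 135 pseudogene rows and 3 rows of *EEF1E1*, a tRNA synthetase partner, were left out, so that 74 members remained. Of these, 68 fall into groups by role and 6 are antisense, divergent or readthrough rows or a similarly named gene. Counts were from TC28a2, an immortalized human chondrocyte line, grown with 2 μM mocetinostat, which inhibits class I histone deacetylases, or with its solvent DMSO alone. Treatment lasted 24 hours in both groups. Each group held 3 samples, described by the study as independent experiments, and the study's comparison asks which RNAs change when the deacetylases are inhibited. A single immortalized line was used, so differences between donors are outside these data.

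Translation begins when the initiator tRNA, carried by eIF2 and GTP, joins the small ribosomal subunit together with eIF1, eIF1A, eIF3 and eIF5. The mRNA is brought in by eIF4F, in which eIF4E binds the cap, eIF4G is the scaffold and eIF4A is a helicase. The 4E-BP proteins hold eIF4E away from eIF4G unless mTORC1 phosphorylates them, and stress kinases slow initiation by phosphorylating the α subunit of eIF2, which then blocks its exchange factor eIF2B. During elongation eEF1A brings aminoacyl-tRNA to the ribosome, the eEF1B complex recharges eEF1A with GTP, eEF2 moves the ribosome along and eIF5A relieves stalls. Chondrocytes depend on a high rate of translation to make extracellular matrix.

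Library totals ranged from 1619344 to 11031132 counts, and the mocetinostat libraries were mostly the shallower ones. After TMM normalization, 13966 genes passed edgeR's filter for low counts, and the biological coefficient of variation was 9.30%. Levels are counts scaled to library size (CPM) with the TMM factors. Of 11 chondrocyte markers, 9 had more than 3 counts in a DMSO sample, and their summed level was 117 to 141 CPM with DMSO and 262 to 304 CPM with mocetinostat. The sum over 5 fibroblast markers was far higher, at 4944 to 5870 CPM with DMSO and 4303 to 4642 CPM with mocetinostat. A single gene carried most of each sum, *SOX9* for chondrocytes (means of 106 and 180 CPM) and *COL1A1* for fibroblasts (4544 and 3932 CPM), while the fibroblast markers *COL1A2* (2.51 and 8.78 CPM) and *PDGFRA* (0.885 and 13.6 CPM) moved the other way. The sums over 3 leukocyte markers (1.18 to 2.08 CPM with DMSO, 4.76 to 11.2 CPM with mocetinostat) and 2 endothelial markers (3.39 to 5.83 and 7.44 to 9.53 CPM) were low. The leukocyte sum was mostly *CD14* with mocetinostat (means of 0.915 and 7.46 CPM), while *PTPRC* was at 0.685 and 0.611 CPM and *CD3E* had 0 counts in every library. Their part in the results was not tested. Because these are bulk samples, fewer cells that express a gene and less of its RNA per cell cannot be told apart.

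Many mRNAs of the translation machinery start with a C followed by a run of pyrimidines, the 5′ terminal oligopyrimidine tract, through which mTORC1 and LARP1 control their translation. RefSeq start sites (GRCh38.p14) were matched to 59 of the 74 members, and a start with C followed by at least 4 further C or T letters was found for 13 of them (22.0%), against 5.14% of the 27305 genes with a listed start. Start windows are shown for 10 of the 13, to set members that fell beside members that did not, and for 2 members without a tract that recur below. Each window holds 10 bases before and 15 bases from the listed start, written 5′ to 3′ on the gene's own strand, with the pyrimidine run in capitals.
EEF1A1, chr6:73521018-73521042, minus strand: cgtgaacgttCTTTTTCgcaacggg
EEF1B2, chr2:206159885-206159909, plus strand: ctcttcgggtCCTTTTTCCTCTCTT
EEF2, chr19:3985449-3985473, minus strand: cgtcagcgttCTCTTCCgccgtcgt
EIF2S3, chrX:24054946-24054970, plus strand: gatttccttcCTCTTTTggcaacat
EIF2D, chr1:206612451-206612475, minus strand: ccagccgggcCCTTTTCgcggccgg
EIF3D, chr22:36529152-36529176, minus strand: cgcatgtttcCTCTTTTCCTggttt
EIF3F, chr11:7987327-7987351, plus strand: cttccgcctcCTTCTTTCTCgacaa
EIF3M, chr11:32583821-32583845, plus strand: gcccagttccCTTTTCCggtcggcg
EIF4A2, chr3:186783567-186783591, plus strand: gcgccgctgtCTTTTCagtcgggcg
EIF4B, chr12:53006446-53006470, plus strand: tcatccgggtCTTTTgcgttctctt
EIF4E, chr4:98929119-98929143, minus strand: tggagcggttgtgcgatcagatcga
EIF4EBP2, chr10:70404135-70404159, plus strand: gccttcgcccgcttccggtcgtcgt

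Most translation factors were lower after mocetinostat on the TMM scale, although with scaling to *GAPDH*, given below, more rose than fell. Of the 67 members that passed the filter, 37 (55.2%) fell and 9 (13.4%) rose at an adjusted p under 0.05 (edgeR's quasi-likelihood test, Benjamini-Hochberg over all genes tested), against 31.4% of all genes tested that fell and 32.9% that rose. The median log2 fold change of the 67 was -0.39, while that of all genes tested was -0.00. When genes with fewer than 10 counts in any sample were dropped, 33 of 57 members (57.9%) fell and 7 rose, against 32.8% and 32.9% of all genes. A change of more than 2-fold was reached by 6 members that fell (*EIF4A1*, *EIF2D*, *EEF1AKMT3*, *EEF1AKMT2*, *EIF3F* and *EIF5A*) and by 3 that rose (*EIF4E3*, *EIF2AK3-DT* and *EIF4EBP2*), against 8.18% and 20.2% of all genes. Of those that rose, *EIF4E3* and *EIF2AK3-DT* passed the filter only through their mocetinostat samples. Of those that fell, *EEF1AKMT3* passed it only through its DMSO samples. *EIF2AK3-DT* was no longer tested with libraries thinned to an equal depth. The number that fell by more than 2-fold moved between 4, without mocetinostat replicate 1, and 9, without DMSO replicate 3 or mocetinostat replicate 2, and several members lay close to the threshold, with *EIF4G2* (-0.99), *EIF3G* and *EIF5* (both -0.97) just short of it and *EIF5A* (-1.01) and *EIF3F* (-1.02) just past it. The number that rose at any size was 5 without DMSO replicate 2 or DMSO replicate 3 and 6 without mocetinostat replicate 3. The 3 samples of each group did not overlap for 48 of the 67 members, against 66.5% of all genes tested.

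The counts of all 74 members together made up 1.74%, 1.71% and 1.74% of the library in the DMSO samples and 1.33%, 1.35% and 1.35% in the mocetinostat samples. All 3 mocetinostat samples lay below all DMSO samples in this share, which is a share within each library. Directions against DMSO did depend on the reference: scaling each library to its *GAPDH* count, whose own log2 fold change was -0.53, raised the median of all genes tested by 0.54 on the log2 scale and gave 26 members that rose (38.8%) and 13 that fell (19.4%), against 55.2% and 9.82% of all genes tested. Relative to that shift, 53 of the 67 members lay below the median gene, the same number that were lower on the TMM scale. This scaling moves every tested gene by nearly the same amount, so that count restates the TMM directions and adds no support. Without the filter the median of those genes moved by -0.25 on the log2 scale, and 50 of 71 members (70.4%) fell and 5 (7.04%) rose, against 13.9% and 10.5% of all genes then tested, which include many with few counts.

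**Figure D1:**
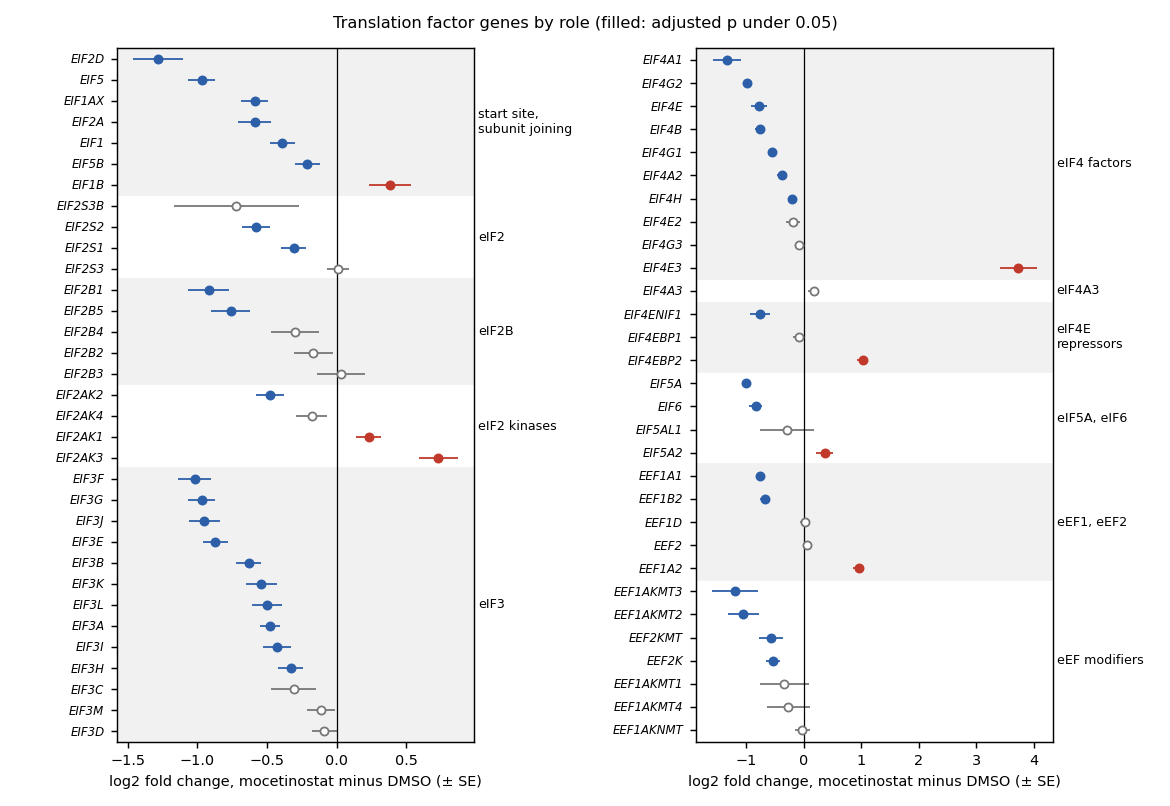
Log2 fold change of each tested translation factor in a role group (mocetinostat against DMSO, TMM scale), with bars of 1 SE, blue for those that fell, red for those that rose and open points for those that did not pass. Most EIF3 and EIF4 points lie below 0 and *EIF4E3* stands apart at 3.73. With scaling to *GAPDH*, every value would shift up by about 0.54.

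The members with a pyrimidine start included none that rose and 8 of 13 that fell (4 and 4 with *GAPDH* scaling), with a median log2 fold change of -0.59 and a range from -1.28 (*EIF2D*) to 0.05 (*EEF2*). Among the 40 tested members with a listed start and no such tract, 7 rose and 21 fell (17 and 7 with *GAPDH* scaling), with a median of -0.30. Over all tested genes, 190 rose and 321 fell of 769 with a pyrimidine start (median -0.18), and 3196 rose and 3180 fell of 9593 without one (median -0.02). Members with a tract of equal length differed in size of change: *EEF1A1* (-0.76) fell and *EEF2* (0.05) did not pass, and both carry a run of 7 letters. Whether the tract bears on the change was not tested. In the promoter window of 250 bases before to 50 after the start, read on both strands, CACGTG (an E-box) was present in 16 of 59 members (27.1%, against 8.77% of all genes), CCGGAAG (an ETS-type site) in 15 (25.4%, against 12.2%) and the palindromic NRF1 motif in 0 (against 1.52%). The members with an E-box include the neighbours *EIF1B* and *EIF1B-AS1*, and *EEF1AKMT4* and its readthrough row *EEF1AKMT4-ECE2*. Those with an ETS-type site include *EIF2AK3* and *EIF2AK3-DT*. Windows of such neighbours can hold the same site, which then counts more than once, so these shares are not of independent promoters. None of the 3 motifs contains another, and a match describes the sequence only.

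The EIF4 factors are the eIF4F subunits, their helpers and relatives such as *EIF4G2*, *EIF4E2* and *EIF4E3*. Of the 10 tested, 7 fell and 1 rose, with a median log2 fold change of -0.47. Of all genes tested, 31.4% fell and 32.9% rose. With *GAPDH* scaling 3 fell and 4 rose, against 9.82% and 55.2% of all genes. *EIF4E*, the cap-binding protein, stood at 64.6, 66.2 and 64.6 CPM in the DMSO samples and at 31.9, 46.5 and 39.4 CPM in the mocetinostat samples. The groups did not overlap, and its log2 fold change was -0.78 (SE 0.14, adjusted p = 8.19e-07). With *GAPDH* scaling *EIF4E* did not pass (-0.25, adjusted p = 0.117). *EIF4E3*, a cap-binding relative with a lower affinity for the cap, was nearly silent with DMSO at 1.27, 1.25 and 2.36 CPM and reached 20.4, 22.3 and 22.4 CPM with mocetinostat. Its log2 fold change of 3.73 (SE 0.32, adjusted p = 3.49e-17) was the highest of all members, and it rested on 6 to 16 counts per DMSO library and 36 to 103 per mocetinostat library. *EIF4E3* passed the filter for low counts only through its mocetinostat samples, so its entry to the test favoured a rise. Per kilobase of its MANE transcript *EIF4E3* still reached only 2.18 CPM after treatment, below *EIF4E* at 16.2 CPM per kilobase. *EIF4E2*, which binds caps without joining active eIF4F, did not pass the test (-0.19, adjusted p = 0.179), although it did without mocetinostat replicate 2 (-0.33, adjusted p = 0.0268).

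The scaffold proteins did not move alike. *EIF4G2* (DAP5), which supports initiation without eIF4E, stood at 1111, 1053 and 1008 CPM with DMSO and at 522, 540 and 535 CPM with mocetinostat. The values of each group were tightly spaced and far apart, with a log2 fold change of -0.99 (SE 0.07, adjusted p = 3.75e-21), and it remained lower with *GAPDH* scaling (-0.46, adjusted p = 4.71e-06). *EIF4G1*, the main scaffold of eIF4F, was at 1443, 1727 and 1818 CPM against 1112, 1142 and 1152 CPM (log2 fold change -0.55, adjusted p = 5.29e-11, and -0.03 with *GAPDH* scaling). *EIF4G3*, its relative, changed by -0.08 (adjusted p = 0.417). Of the helicase and its cofactors, *EIF4B* fell by 0.77 on the log2 scale (362, 345 and 362 CPM against 216, 201 and 207 CPM), *EIF4A2* by 0.39 and *EIF4H* by 0.20, although with *GAPDH* scaling *EIF4A2* was at 0.14 and *EIF4H* at 0.33. *EIF4H* did not pass without mocetinostat replicate 1 (-0.15, adjusted p = 0.199) or with libraries thinned to an equal depth (-0.11, adjusted p = 0.322).

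*EIF4A1*, the main eIF4A helicase, had a log2 fold change of -1.34 (SE 0.25, adjusted p = 2.82e-06), from 19.5, 17.1 and 20.0 CPM to 7.14, 3.72 and 10.8 CPM. These levels rest on few assigned reads, 6 in the smallest library. Of its exon bases 47.4% are shared with other annotated genes on the same strand, and its pseudogene rows together held 20.8% as many counts as *EIF4A1* itself with DMSO and 36.8% with mocetinostat. Its value is uncertain to that extent, and so is the ratio of *EIF4A2* counts to 100 of *EIF4A1*, which was 2512, 2547 and 2329 with DMSO and 5001, 8423 and 3311 with mocetinostat. *EIF4A3*, which despite its name is the helicase of the exon junction complex, was at 130.7, 123.1 and 129.7 CPM with DMSO and 134, 152 and 150 CPM with mocetinostat (0.17, adjusted p = 0.108). It passed the test when genes with fewer than 10 counts in any sample were dropped (0.25, adjusted p = 0.0178).

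The repressors of eIF4E went in different directions. *EIF4EBP2* (4E-BP2) stood at 118, 111 and 94.8 CPM in the DMSO samples and at 220, 242 and 199 CPM in the mocetinostat samples. All treated samples were above all controls, with a log2 fold change of 1.02 (SE 0.10, adjusted p = 2.01e-15). *EIF4EBP1* (4E-BP1), the best-studied repressor, was at 116, 137 and 139 CPM against 127.3, 122.7 and 114.8 CPM, so that the groups overlapped (-0.09, SE 0.10, adjusted p = 0.417, and 0.43 with *GAPDH* scaling). *EIF4ENIF1* (4E-T), which carries eIF4E into the nucleus and to P bodies, fell from 37.8, 36.9 and 41.1 CPM to 25.8, 16.1 and 23.6 CPM (-0.76, adjusted p = 5.31e-05). With *GAPDH* scaling *EIF4ENIF1* did not pass (-0.22, adjusted p = 0.267). *EIF4EBP3* had at most 2 counts in a library and was not tested, and 73.2% of its exons are covered by another gene on the same strand. Per kilobase of transcript, *EIF4EBP1* was the more abundant of the pair in both groups, at 158 and 147 CPM per kilobase, while *EIF4EBP2* went from 14.4 to 29.4.

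**Figure D2:**
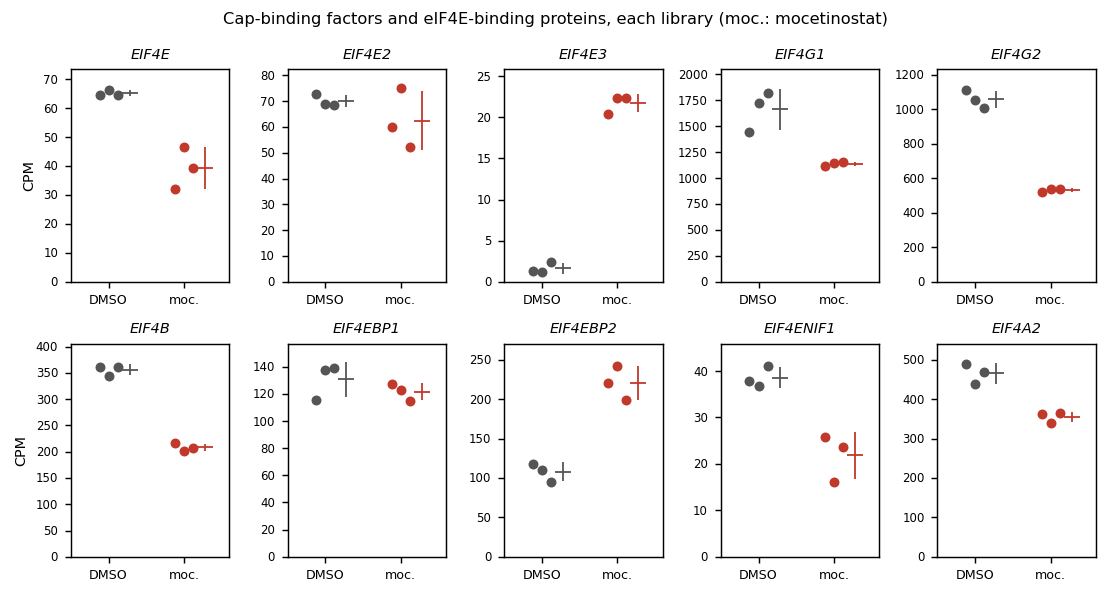
Level (TMM-normalized CPM, axes from 0) of 10 cap-binding factors and eIF4E-binding proteins, with 1 point for each of the 3 DMSO (grey) and 3 mocetinostat (red) samples and the mean ± SD beside them. *EIF4E* and *EIF4ENIF1* are lower, *EIF4E3* and *EIF4EBP2* are higher and *EIF4EBP1* overlaps between groups. With scaling to *GAPDH*, *EIF4EBP1* would be at 0.43 on the log2 scale instead of -0.09, and *EIF4E* (-0.25) and *EIF4ENIF1* (-0.22) did not pass.

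Ratios of counts within a library avoid the choice of reference. For every 100 counts of *EIF4E*, *EIF4EBP2* had 183, 167 and 147 counts in the DMSO libraries and 687, 519 and 504 in the mocetinostat libraries. The ratio was 3.42-fold higher after treatment, and the groups did not overlap (exact permutation test, 2-sided p = 0.1, the smallest p that 3 against 3 samples allow). *EIF4EBP1* per 100 *EIF4E* counts went from 179, 207 and 215 to 398, 263 and 291, a 1.56-fold difference with no overlap and the same exact p of 0.1. Both ratios also hold the fall of *EIF4E* on the TMM scale (-0.78), where *EIF4EBP1* was at -0.09. The second ratio thus does not by itself show a rise of *EIF4EBP1*. These ratios are not corrected for transcript length, so only their change between groups can be read.

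Among the eIF2 subunits, 2 of the 4 tested members fell and none rose, against 31.4% and 32.9% of all genes tested. With *GAPDH* scaling none fell and 2 rose, against 9.82% and 55.2%. *EIF2S1*, the α subunit that stress kinases phosphorylate, was at 222, 204 and 198 CPM with DMSO and 169, 152 and 180 CPM with mocetinostat. *EIF2S2*, the β subunit, was at 199, 179 and 210 CPM against 119, 131 and 148 CPM. Both sets of samples were separate, with log2 fold changes of -0.31 (SE 0.09, adjusted p = 0.00202) and -0.58 (SE 0.10, adjusted p = 2.17e-07), although with *GAPDH* scaling they were at 0.22 and -0.05. *EIF2S1* did not pass after each library was thinned to an equal depth (-0.20, adjusted p = 0.0744). *EIF2S3*, the γ subunit that binds GTP and the initiator tRNA, stayed within overlapping values of 373 to 411 and 381 to 403 CPM (0.01, SE 0.08, adjusted p = 0.948), and its near copy *EIF2S3B* did not pass (-0.72, adjusted p = 0.154) at 2.07 to 5.75 CPM.

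Of the 5 subunits of eIF2B, the exchange factor for eIF2, 2 fell and none rose, against 31.4% and 32.9% of all genes tested. With *GAPDH* scaling 1 fell and 2 rose, against 9.82% and 55.2%. *EIF2B1*, a regulatory subunit, went from 54.6, 53.7 and 52.5 CPM to 22.6, 36.6 and 30.3 CPM (log2 fold change -0.92, SE 0.15, adjusted p = 1.47e-07). *EIF2B5*, the catalytic subunit, went from 73.7, 74.1 and 76.9 CPM to 31.5, 60.7 and 48.5 CPM (-0.76, adjusted p = 2.66e-06). Both were lower in every treated sample, but the treated samples spread widely, and without mocetinostat replicate 1 *EIF2B5* was at -0.48 (adjusted p = 0.00536). *EIF2B2*, *EIF2B3* and *EIF2B4* had log2 fold changes of -0.17, 0.03 and -0.30 and did not pass, although *EIF2B4* did without DMSO replicate 3 (-0.42, adjusted p = 0.0432). With *GAPDH* scaling *EIF2B1* was at -0.39 and *EIF2B5* at -0.23.

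The 4 kinases of eIF2α split, with 2 that rose and 1 that fell, against 32.9% and 31.4% of all genes tested. With *GAPDH* scaling 3 rose and none fell, against 55.2% and 9.82%. *EIF2AK3* (PERK), the kinase of the endoplasmic reticulum, was at 28.8, 34.6 and 37.0 CPM with DMSO and 59.1, 49.0 and 54.7 CPM with mocetinostat. *EIF2AK2* (PKR), the kinase that binds double-stranded RNA, was at 168, 162 and 159 CPM against 116, 122 and 115 CPM. Neither gene had overlapping groups, and the log2 fold changes were 0.73 (SE 0.14, adjusted p = 4.85e-06) and -0.48 (SE 0.10, adjusted p = 1.07e-05), although *EIF2AK2* was at 0.05 with *GAPDH* scaling. *EIF2AK1* (HRI), the heme-regulated kinase, rose by a small amount (0.23, adjusted p = 0.0244), and this call was lost without DMSO replicate 1 (adjusted p = 0.0574), DMSO replicate 2 (0.0509), DMSO replicate 3 (0.098), mocetinostat replicate 1 (0.0902) or mocetinostat replicate 3 (0.152). *EIF2AK4* (GCN2), the sensor of uncharged tRNA, changed by -0.18 (adjusted p = 0.139). The divergent transcript *EIF2AK3-DT*, read from the strand opposite *EIF2AK3*, was at 1.72, 1.04 and 1.62 CPM with DMSO and 5.35, 4.96 and 8.70 CPM with mocetinostat, with no overlap (log2 fold change 2.04, SE 0.45, adjusted p = 6.84e-05). It rested on 5 to 19 counts per DMSO library and 8 to 27 per mocetinostat library, and passed the filter only through the latter. With libraries thinned to an equal depth *EIF2AK3-DT* was not tested. It lies within the span of *EIF2AK3* without sharing exon bases, and whether strand was used in counting is not given.

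Of the factors that act at the start codon, 6 of the 7 tested fell and 1 rose, against 31.4% and 32.9% of all genes. With *GAPDH* scaling 2 fell and 2 rose, against 9.82% and 55.2%. *EIF2D*, which can deliver tRNA without GTP and helps recycle ribosomes, was at 35.6, 34.8 and 34.2 CPM with DMSO and 15.1, 13.6 and 13.7 CPM with mocetinostat. The groups were well apart, with a log2 fold change of -1.28 (SE 0.18, adjusted p = 5.15e-09), or -0.74 with *GAPDH* scaling. *EIF5*, the GTPase activator of eIF2, fell by 0.97 on the log2 scale (SE 0.10, adjusted p = 2.87e-14) and was also lower with *GAPDH* scaling (-0.44, adjusted p = 0.000359). *EIF1*, which guards against wrong start codons, had a log2 fold change of -0.39 (adjusted p = 0.000152) with overlapping groups, and *EIF1B*, its near copy, was the one that rose (0.38, adjusted p = 0.0212). With *GAPDH* scaling *EIF1* was at 0.14. The *EIF1B* call was lost without DMSO replicate 2 (0.31, adjusted p = 0.11), DMSO replicate 3 (0.34, adjusted p = 0.0673) or mocetinostat replicate 3 (0.28, adjusted p = 0.147). The ratio of *EIF1B* to *EIF1* counts did not overlap, at 11.4, 11.0 and 14.7 per 100 with DMSO and 19.7, 19.4 and 24.2 per 100 with mocetinostat (exact permutation test, p = 0.1). That ratio also holds the fall of *EIF1* on the TMM scale, so it does not by itself show a rise of *EIF1B*. *EIF5B*, which joins the subunits, had the smallest fall (-0.21, adjusted p = 0.0331), and did not pass without mocetinostat replicate 3 (-0.18, adjusted p = 0.133).

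The eIF3 complex, the largest initiation factor and the scaffold of the small subunit, was lower almost throughout on the TMM scale, although not with *GAPDH* scaling. On the TMM scale all 13 tested subunits had a negative log2 fold change, from -1.02 to -0.09 with a median of -0.50. The test was passed by 10, against 31.4% of all genes tested that fell. With *GAPDH* scaling the median was 0.03, and 7 subunits had a positive value and 6 a negative one. Of these, 4 fell (*EIF3F*, *EIF3G*, *EIF3J* and *EIF3E*) and 2 rose (*EIF3D* and *EIF3M*) past the threshold, against 9.82% and 55.2% of all genes. Counts assigned to eIF3 subunits made up 0.252%, 0.243% and 0.240% of the library in the DMSO samples and 0.171%, 0.169% and 0.170% in the mocetinostat samples. The treated samples were all lower, by a margin far wider than the spread within either group.

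Within eIF3 the subunits did not change by one common amount. *EIF3F*, a subunit with an MPN domain, was at 105, 97.3 and 92.0 CPM with DMSO and 49.96, 50.82 and 44.76 CPM with mocetinostat. *EIF3G*, an RNA-binding subunit near the mRNA channel, was at 179, 205 and 217 CPM against 111, 93.0 and 99.5 CPM. Both had roughly halved, with log2 fold changes of -1.02 (SE 0.12, adjusted p = 1.87e-11) and -0.97 (SE 0.10, adjusted p = 6.74e-14). *EIF3J*, the loosely held subunit, fell by 0.95 and *EIF3E* by 0.87 on the log2 scale. *EIF3B*, the propeller subunit, fell by 0.63, *EIF3K* by 0.54, *EIF3L* by 0.50, *EIF3A*, the largest subunit, by 0.48, *EIF3I* by 0.43 and *EIF3H* by 0.33, although *EIF3A*, *EIF3L*, *EIF3I* and *EIF3H* were at 0.05, 0.03, 0.11 and 0.21 with *GAPDH* scaling.

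At the other end, *EIF3D*, the subunit that can itself bind the cap of certain mRNAs, was at 178, 170 and 174 CPM with DMSO and 171, 155 and 161 CPM with mocetinostat. *EIF3M* was at 142.7, 134.5 and 122.8 CPM against 112.8, 122.7 and 138.8 CPM. The groups overlapped for both, with log2 fold changes of -0.09 (SE 0.09, adjusted p = 0.373) and -0.11 (SE 0.10, adjusted p = 0.361), and 0.44 and 0.43 with *GAPDH* scaling. *EIF3C* did not pass (-0.31, adjusted p = 0.0831) but did without DMSO replicate 1 (-0.45, adjusted p = 0.0145). Its copy *EIF3CL* had at most 2 counts in any library, and reads that match both copies cannot be told apart. *EIF3L* shares 41.1% of its exon bases with another gene on the same strand. The 8 subunits of the PCI and MPN core had a median of -0.49 with 6 that fell, and *EIF3B*, *EIF3G* and *EIF3I* all fell, with a median of -0.63.

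**Figure D3:**
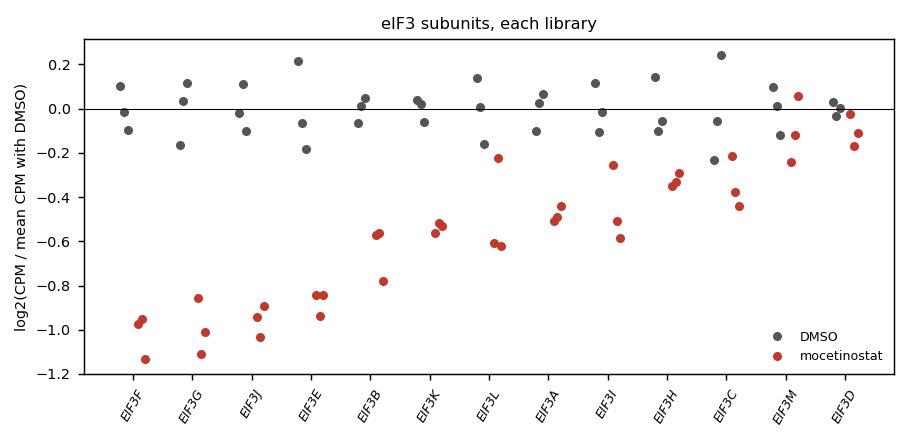
Level of each eIF3 subunit in each of the 6 libraries as a log2 difference from the mean of its DMSO samples (TMM scale). *EIF3F*, *EIF3G* and *EIF3J* are near -1 in all 3 mocetinostat samples, while *EIF3D* and *EIF3M* stay near 0. With scaling to *GAPDH* the mocetinostat values would shift up by about 0.54, and 4 subunits still fell.

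*EIF5A*, the hypusine-carrying factor that relieves stalled ribosomes, was at 999, 1065 and 1083 CPM with DMSO and 506, 540 and 523 CPM with mocetinostat. The groups were far apart and the log2 fold change was -1.01 (SE 0.07, adjusted p = 2.06e-21), or -0.48 with *GAPDH* scaling (adjusted p = 3.70e-06). Its paralog *EIF5A2* was at 32.8, 31.0 and 31.8 CPM against 36.1, 35.9 and 51.8 CPM, with a log2 fold change of 0.36 (adjusted p = 0.0336). That call was lost without DMSO replicate 2 (0.31, adjusted p = 0.121), DMSO replicate 3 (0.33, adjusted p = 0.0764) or mocetinostat replicate 3 (0.16, adjusted p = 0.432). For every 100 *EIF5A* counts, *EIF5A2* had 3.28, 2.92 and 2.95 with DMSO and 7.16, 6.71 and 9.94 with mocetinostat, with no overlap (exact permutation test, p = 0.1). This ratio also holds the fall of *EIF5A*, so it does not by itself show a rise of *EIF5A2*. Per kilobase *EIF5A* was still by far the more abundant, at 830 and 414 CPM per kilobase against 5.76 and 7.46 for *EIF5A2*. *EIF6*, which keeps the large subunit from joining too early, fell by 0.84 on the log2 scale (SE 0.11, adjusted p = 1.17e-09) and by 0.30 with *GAPDH* scaling (adjusted p = 0.0237).

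The elongation factors moved apart from one another: of 5 tested, 2 fell, 1 rose and 2 did not pass. Of all genes, 31.4% fell and 32.9% rose. With *GAPDH* scaling 1 fell and 3 rose, against 9.82% and 55.2%. *EEF1A1*, the eEF1A of most cells, was at 2740, 2426 and 2507 CPM with DMSO and 1505, 1517 and 1506 CPM with mocetinostat. *EEF1A2*, the form normally found in muscle and neurons, was at 130, 144 and 157 CPM against 280, 294 and 256 CPM. Neither overlapped between groups, and the log2 fold changes had opposite signs, -0.76 (SE 0.06, adjusted p = 3.78e-18) and 0.95 (SE 0.09, adjusted p = 1.99e-15), also with *GAPDH* scaling (-0.23 and 1.48). For every 100 *EEF1A1* counts there were 4.74, 5.92 and 6.25 counts of *EEF1A2* in DMSO samples and 18.6, 19.4 and 17.0 in mocetinostat samples, a 3.27-fold difference without overlap (exact permutation test, p = 0.1). *EEF1A1* nevertheless remained the more abundant per kilobase, at 728 and 430 CPM per kilobase against 80.8 and 156 for *EEF1A2*. Pseudogene rows of *EEF1A1* held 1.00% as many counts as the gene with DMSO and 0.929% with mocetinostat.

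*EEF2*, the translocase, was at 2885, 3160 and 3304 CPM with DMSO and 3212, 3229 and 3245 CPM with mocetinostat, so that the groups overlapped (0.05, SE 0.06, adjusted p = 0.452). *EEF1B2*, a guanine nucleotide exchanger for eEF1A, fell by 0.68 on the log2 scale (249, 250 and 280 CPM against 168, 157 and 158 CPM, adjusted p = 2.16e-10), while *EEF1D*, another exchanger, changed by 0.01 (adjusted p = 0.896). With *GAPDH* scaling *EEF2* and *EEF1D* were at 0.58 and 0.54, close to the shift of the median gene, and *EEF1B2* at -0.15. *EEF1D* lies opposite other annotated genes over 34.0% of its exon bases. *EEF1G* had 0 counts in all 6 libraries, and 99.7% of its exon bases are covered by another gene on the same strand, so its level could not be read from this table.

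**Figure D4:**
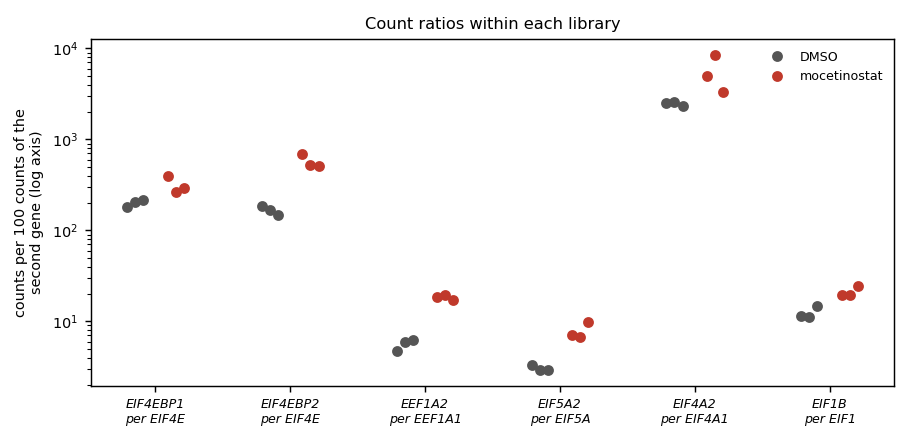
Counts of 1 gene per 100 counts of its partner or paralog in each library (log axis), 3 DMSO and 3 mocetinostat points for each of 6 pairs. In every pair the 3 treated libraries lie above the 3 DMSO libraries, and the ratios do not depend on scaling between libraries. A higher ratio can hold a fall of the second gene as well as a rise of the first.

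The enzymes that modify elongation factors included 4 that fell and none that rose of 7 tested, against 31.4% and 32.9% of all genes. With *GAPDH* scaling none fell and 1 (*EEF1AKNMT*) rose, against 9.82% and 55.2%. *EEF2K*, the kinase that inhibits eEF2, was at 84.0, 90.6 and 78.9 CPM with DMSO and 56.5, 58.9 and 58.9 CPM with mocetinostat, with no overlap (-0.54, SE 0.12, adjusted p = 5.97e-05, and -0.01 with *GAPDH* scaling). With libraries thinned to an equal depth, *EEF2K* (-0.30, adjusted p = 0.0688) and the methyltransferase *EEF1AKMT2* (-0.59, adjusted p = 0.145) did not pass. The lowest value in this group was that of *EEF1AKMT3*, a lysine methyltransferase of eEF1A, at -1.20 (adjusted p = 0.00709). It was at 7.69, 5.62 and 6.93 CPM against 1.78, 1.86 and 5.80 CPM, so the groups overlapped. *EEF1AKMT3* passed the filter for low counts only through its DMSO samples, so its entry to the test favoured a fall. The call was lost without mocetinostat replicate 1 (-0.73, adjusted p = 0.167) and with DESeq2 (-1.17, adjusted p = 0.0893). *EEF1AKNMT*, another eEF1A methyltransferase, had the highest value (-0.03, adjusted p = 0.88, and 0.51 with *GAPDH* scaling, adjusted p = 0.00102). Of the other rows, *EIF1B-AS1*, a non-coding gene that lies head to head with *EIF1B* on the other strand and does not overlap it, was at 2.44, 3.12 and 2.06 CPM against 5.95, 4.34 and 3.73 CPM (0.96, adjusted p = 0.0479), and this call was lost on leaving out any library but mocetinostat replicate 3, with the lowest value without mocetinostat replicate 1 (0.66, adjusted p = 0.348).

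Genes that act with these factors but carry other names were also mostly lower on the TMM scale, although with *GAPDH* scaling more rose than fell. Of 42 such partners 41 were tested, of which 25 fell and 7 rose, with a median of -0.35, against 31.4% of all genes tested that fell and 32.9% that rose. With *GAPDH* scaling 7 fell and 16 rose, against 9.82% and 55.2% of all genes. Both kinases of eIF4E rose: *MKNK1* was at 20.9, 19.6 and 20.0 CPM with DMSO and 40.1, 37.2 and 40.6 CPM with mocetinostat, and *MKNK2* at 112, 124 and 116 CPM against 200, 196 and 175 CPM. Their log2 fold changes were 0.96 (adjusted p = 3.89e-07) and 0.70 (adjusted p = 7.11e-10), without overlap.

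Of 9 genes of mTORC1 and its neighbours, 6 fell and 1 rose, against 31.4% and 32.9% of all genes. With *GAPDH* scaling 3 fell and 5 rose, against 9.82% and 55.2%. *RPTOR*, which recruits 4E-BP to the complex, was at 109, 135 and 137 CPM with DMSO and 46.2, 48.3 and 49.3 CPM with mocetinostat (log2 fold change -1.41, SE 0.12, adjusted p = 3.43e-17). *MLST8*, a core subunit, fell by 1.11 (adjusted p = 5.07e-10). *DEPTOR*, an inhibitor of mTOR, rose from 2.71, 1.04 and 0.884 CPM to 5.55, 13.0 and 7.46 CPM, with no overlap (2.23, SE 0.45, adjusted p = 1.18e-05). It rested on 5 to 30 counts per DMSO library and passed the filter only through its mocetinostat samples. *RPTOR* and *MLST8* were lower with *GAPDH* scaling as well (-0.87 and -0.57). Of the genes outside the naming rule, the inhibitor *TSC2* also fell (-0.96, adjusted p = 1.31e-11, and -0.42 with *GAPDH* scaling), as did its partner *TSC1* (-0.29, adjusted p = 0.0142), though not without mocetinostat replicate 3 (-0.26, adjusted p = 0.0664) or with thinned libraries (-0.14, adjusted p = 0.344), and it was at 0.25 with *GAPDH* scaling. *RHEB*, the activator of mTORC1, and *RPS6KB1*, one of its substrates, did not pass (0.05, adjusted p = 0.694, and 0.13, adjusted p = 0.346). *ABCE1*, which splits ribosomes after termination, had the lowest value of all partners, at 233, 202 and 203 CPM against 79.5, 60.7 and 80.8 CPM (-1.50, SE 0.10, adjusted p = 1.32e-21). *PAIP2B*, which pulls poly(A)-binding protein away from mRNA, had the highest, at 3.89, 2.08 and 2.95 CPM against 15.1, 18.0 and 14.9 CPM (2.33, SE 0.31, adjusted p = 5.16e-10).

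*PABPC1*, the main poly(A)-binding protein, changed little (-0.15, adjusted p = 0.0277, and 0.37 with *GAPDH* scaling), and it did not pass without DMSO replicate 2 (adjusted p = 0.0584), mocetinostat replicate 1 (0.0574) or mocetinostat replicate 3 (0.0833). *PPP1R15A* (GADD34), which brings a phosphatase to eIF2α, had overlapping groups at 149, 207 and 202 CPM against 148, 170 and 134 CPM (-0.31, adjusted p = 0.00583, and 0.22 with *GAPDH* scaling). *DOHH*, which completes hypusine on eIF5A, fell by 0.88 on the log2 scale (adjusted p = 7.26e-05), with -0.34 under *GAPDH* scaling (adjusted p = 0.125), and *DHPS*, which begins it, did not pass (-0.32, adjusted p = 0.478) at 1.86 to 7.29 CPM. *PDCD4*, an inhibitor of eIF4A, did not pass either (-0.06, adjusted p = 0.718).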

How the data were processed

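RNA of TC28a2 cells was sequenced as single reads. The authors trimmed reads, removed ribosomal RNA reads, aligned to GRCh38 with STAR 2.6.1d and assigned reads to genes with featureCounts 1.6.4, and they deposited raw counts per gene, without normalization. Whether strand was used, and how reads of overlapping or repeated genes were treated, is not given in the sources used here. Fold changes, standard errors and adjusted p-values were computed from the deposited counts with edgeR 4.0.16 in R 4.3.3: TMM factors, filterByExpr (minimum count 10), a quasi-likelihood test on treatment alone and Benjamini-Hochberg adjustment over 13966 genes, with 0.05 as threshold and a log2 fold change of 1 for larger changes. Ratios used a prior count of 0.5. Exon overlaps are from GENCODE release 44, which matched 99.5% of identifiers. Starts are from RefSeq. The members, role groups and partner list were chosen with earlier results of these data known.

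Members of the EIF2, EIF3, EIF4, repressor and EEF1/EEF2 groups could all be named. Of the other groups, the highest and lowest values and preset regulators were named, and of partners those past both thresholds and a preset few. Other genes were chosen after their values were seen. The same fits were tested on simulated counts. The alternatives were DESeq2 1.42.0, RLE factors, library size alone, *GAPDH* scaling, no filter, 10 counts in every sample, glmTreat, thinned libraries, a replicate block and each library left out. Replicates differed by more than sampling noise, so each counted as 1 sample. Totals of 1619344 to 11031132 counts per sample set the precision.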

Additional observations from a re-analysis of the deposited data

How the results depend on the processing

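Thinning the libraries ended the calls of *EEF1AKMT2*, *EEF2K*, *EIF2S1* and *EIF4H* and added that of *EIF4A3*. It also left *EIF2AK3-DT* and *EIF1B-AS1*, called higher in the main fit, below the count filter, so they were not tested. Among the 67 tested members, DESeq2 changed the side of the threshold of 6, RLE factors of 2, library size alone of 1 and the replicate block of 1 (*EIF1B-AS1*), and none of these settings turned the direction of a call. The numbers of members that rose and fell were 9 and 37. The number that rose was 5 with DESeq2, 5 without the filter and 26 with *GAPDH* scaling, and from 5 to 8 on leaving out a library. The number that fell was 13 with *GAPDH* scaling. Beyond 2-fold, 6 rose with *GAPDH* scaling, where 3 had risen, with 2 to 4 on leaving out a library, and the number that fell was 0 with *GAPDH* scaling, 18 without the filter, 1 with 10 counts in every sample and 0 with glmTreat, with 4 to 9 on leaving out a library. glmTreat tests directly for more than a 2-fold change, and it called 2 members higher. Over all genes tested, 51.2% of the calls were upward, against 84.9% with *GAPDH* scaling and 42.9% without the filter.

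With thinned libraries, on the TMM scale, 1 of the EIF2 subunits fell. With *GAPDH* scaling, the number that fell was 0 of the EIF2 subunits, 1 of EIF2B, 4 of EIF3, 3 of EIF4, 0 of the eIF4E repressors, of which 2 rose, and 1 of EEF1 and EEF2, and 16 partners rose and 7 fell. Without the filter, 4 of EIF2B, 2 of the repressors and 4 of EEF1 and EEF2 fell, and 4 partners rose. Of all genes tested, 9.82% fell and 55.2% rose with *GAPDH* scaling, and 13.9% and 10.5% without the filter. The ratios used no scaling. With *GAPDH* scaling the log2 fold change, past the threshold in at least 1 of the fits, turned positive for *DHX29* (0.19), *EEF1AKNMT* (0.51), *EIF1* (0.14), *EIF1AD* (0.35), *EIF2AK2* (0.05), *EIF2AK4* (0.36), *EIF2B2* (0.37), *EIF2S1* (0.22), *EIF3A* (0.05), *EIF3D* (0.44), *EIF3H* (0.21), *EIF3I* (0.11), *EIF3L* (0.03), *EIF3M* (0.43), *EIF4A2* (0.14), *EIF4E2* (0.35), *EIF4EBP1* (0.43), *EIF4G3* (0.45), *EIF4H* (0.33), *EIF5B* (0.32), *GFM1* (0.09), *GFM2* (0.20), *GSPT1* (0.03), *MTOR* (0.24), *PABPC1* (0.37), *PDCD4* (0.48), *PPP1R15A* (0.22), *TSC1* (0.25) and *TUFM* (0.09). Without the filter it turned negative for *EEF1D* (-0.24), *EEF2* (-0.20), *EIF2AK1* (-0.02) and *EIF2S3* (-0.25).

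Whether same-numbered samples came from the same experiment is not given. The correlations of their deviations from the group means were 0.0078, 0.0116 and -0.0162, and not every sample correlated best with its own number. With 3 samples per group these values cannot settle whether the samples were paired. With the replicate number as a block, 8 members rose and 37 fell. Genes with few counts in the smaller mocetinostat libraries, such as *EEF1AKMT3*, were limited by depth. *EIF4A1* also had few counts there, but it had only 215 in DMSO replicate 1, the deepest library. Its shared exon bases and pseudogene counts, given above, limit it at any depth.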

Other observations

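The factors of mitochondrial translation, which serve the organelle's own ribosomes, were mostly lower, with 6 of the 9 tested that fell and 1 that rose (31.4% and 32.9% of all genes tested), although with *GAPDH* scaling none fell and 1 rose (9.82% and 55.2% of all genes). *TUFM*, the mitochondrial counterpart of eEF1A, was at 399, 451 and 479 CPM with DMSO and 327, 325 and 326 CPM with mocetinostat, with no overlap (log2 fold change -0.44, SE 0.08, adjusted p = 1.08e-06 by edgeR's quasi-likelihood test, and 0.09 with *GAPDH* scaling). *MTIF2*, the mitochondrial initiation factor that binds GTP, fell by 0.73 (55.7, 59.1 and 61.2 CPM against 28.9, 34.1 and 45.2 CPM, adjusted p = 7.16e-06). *TSFM*, the exchange factor of *TUFM*, had too few counts to be tested. *MTRF1L*, a release factor, had the only positive value that passed in this list (0.39, adjusted p = 0.0191), a call that was lost without DMSO replicate 1 (0.27, adjusted p = 0.12) or mocetinostat replicate 2 (0.26, adjusted p = 0.155).

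*EEFSEC*, which carries selenocysteine tRNA to the ribosome, went from 24.2, 29.2 and 24.2 CPM to 34.9, 43.4 and 37.7 CPM (0.57, SE 0.16, adjusted p = 0.00151), while its partner *SECISBP2* had overlapping groups (0.04, adjusted p = 0.79). *EEFSEC* did not pass without the filter (0.32, adjusted p = 0.173). *LARP1*, which binds pyrimidine-start mRNAs, was at 525, 596 and 595 CPM with DMSO and 323, 335 and 320 CPM with mocetinostat (-0.81, SE 0.08, adjusted p = 2.42e-15, and -0.28 with *GAPDH* scaling). These genes were chosen after their values were seen.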
